A study of Mus musculus with 10 samples.

Results

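Genes of the Wnt pathway that act at the cell surface, and the genes that read out the signal, were examined in bulk RNA sequencing of mouse fibroblasts. The members were every gene of the deposited count table whose symbol begins with Wnt, Fzd, Sfrp or Rspo and a number, with the Dkk genes, Frzb, Notum, Lrp5, Lrp6, Lgr4 to Lgr6, Ror1, Ror2, Znrf3, Axin2, Lef1, Tcf7, Tcf7l1 and Tcf7l2. They numbered 45 of 22731 genes, and 34 of them were among the 16344 genes abundant enough to test. One of the 45, Rspo4os, is an antisense transcript that the wording of the rule includes. Dkk1, Wif1, Rnf43 and the remaining Wnt genes were not analysed here.

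There were 3 groups. In the WT coculture (3 libraries), fibroblasts were kept with wild-type group 2 innate lymphoid cells (ILC2s), which are tissue lymphocytes without an antigen receptor. In the IL13KO coculture (3 libraries), the ILC2s lacked IL-13, and in the monoculture (4 libraries) fibroblasts were kept without ILC2s. All libraries carry the genotype C57B6 in the labels, which give no age, animal, day of culture or culture dish, so p-values measure the spread between these libraries only. The starting fibroblasts were sorted as PDGFRα+ and podoplanin+ and as negative for CD45, Epcam and CD31, and the ILC2s as KLRG1+. The gate written in the design for the sort after coculture is CD45+, the antigen of white blood cells, which the starting fibroblasts lacked. Whether CD45- was meant is not stated, so the gate of the cells sequenced is uncertain.

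Wnt proteins are lipid-modified secreted ligands that bind Frizzled receptors. With the co-receptors LRP5 and LRP6 they prevent the breakdown of β-catenin, which then acts with TCF/LEF factors in the nucleus, while with ROR receptor kinases they signal without β-catenin. Secreted Frizzled-related proteins and Frzb bind Wnt ligands, Dickkopf proteins bind the co-receptors, Notum removes the lipid from the ligand, and R-spondins with LGR receptors keep the ubiquitin ligase ZNRF3 from removing Frizzleds. Fibroblasts are a main source of Wnt ligands and of their secreted antagonists in many tissues.

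Total counts were 18801744 to 22087459 in the WT cocultures, 17277432 to 17661229 in the IL13KO cocultures and 10710410 to 14366199 in the monocultures. Il13 had 271 reads over the WT cocultures and 0 over either of the other groups. The 7 fibroblast markers (such as Pdgfra, Pdpn and Col1a1) were read in every group, with a summed level of 8133 to 12446 CPM (reads scaled by library size) in the WT cocultures, 15618 to 18961 in the IL13KO cocultures and 5357 to 6985 in the monocultures. Col1a1 made the largest part of that sum in the cocultures, at 6756, 11570.2 and 1070 CPM on average in WT, IL13KO and monoculture, while Dcn was lower in WT than in monoculture (369, 1650.2 and 2532 CPM; -2.78 ± 0.20, edgeR adjusted p = 1.96e-07). The 12 leukocyte and ILC2 markers without Thy1, which fibroblasts also express, summed to 106 to 152 CPM in the WT cocultures, 19.3 to 29.0 in the IL13KO cocultures and 4.96 to 7.10 in the monocultures. Cd53, a pan-leukocyte membrane protein, averaged 103.6 ± 10.04 CPM in the WT cocultures, 16.4 ± 3.32 in the IL13KO cocultures and 3.13 ± 0.760 in the monocultures. Cd53 made most of that sum in the cocultures. Without Cd53, the median sum was 30.2 CPM in the WT cocultures, 6.69 in the IL13KO cocultures and 2.46 in the monocultures. Ptprc, the gene of CD45, had 18 reads over the WT cocultures, 1 over the IL13KO cocultures and 0 over the monocultures. Of the 12, 6 were at 0 reads in the monocultures (Il13, Il5, Il7r, Klrg1, Laptm5 and Ptprc). The 4 macrophage markers summed to 14.7 to 17.5 CPM in the WT cocultures, 35.2 to 37.1 in the IL13KO cocultures and 58.4 to 65.3 in the monocultures. Lyz2 alone was lower in the cocultures (2.85, 23.8 and 53.4 CPM on average in WT, IL13KO and monoculture), while Csf1r was higher in WT than in monoculture (12.9, 12.2 and 9.0 CPM; 0.52 ± 0.18, edgeR adjusted p = 0.0214), and Cd68 and Adgre1 stayed below 1 CPM. Endothelial markers summed to at most 3.69 CPM in any library and epithelial markers to at most 3.33, and T and B cell markers were not analysed here. The 8 mural and stellate markers summed to 698 to 950 CPM in the WT cocultures, 815 to 1142 in the IL13KO cocultures and 1140 to 1359 in the monocultures. Acta2 made most of that sum, at 767, 875 and 1156 CPM on average in WT, IL13KO and monoculture. The 5 mesothelial markers summed to 130 to 151 CPM in the WT cocultures, 107 to 227 in the IL13KO cocultures and 25.0 to 149.7 in the monocultures. Of these, Wt1 averaged 133, 110 and 30.7 CPM in WT, IL13KO and monoculture and was called higher in both cocultures. Upk1b and Upk3b varied between libraries of a group, at 59.4 and 45.9 CPM in monoculture 3 and 25.0 and 73.4 in IL13KO coculture 2. Both had 0 reads in WT coculture 4. Across genes, the log2 fold change against monoculture went with the GC content of the transcript in both cocultures (Spearman's rho = 0.339 for WT and 0.404 for IL13KO), and hardly between the cocultures (rho = -0.0482, 16313 genes, which are not independent replicates). The part of any of these in the results was not tested. Beside a named Wnt pathway gene whose call ended or whose called fold moved by over 1.5 times when a smooth trend of expression on GC content and length was subtracted in every library, the value is given as after GC correction.

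Below, a level is a TMM-normalised CPM, given per library in the order WT coculture 1, 3 and 4 (the numbers in the count table), IL13KO coculture 1 to 3 and monoculture 1 to 4, or as a mean ± SD (n = 3, 3 and 4). Differences are fitted log2 fold changes ± SE with the Benjamini-Hochberg adjusted p of edgeR's quasi-likelihood test over all 16344 genes, and a gene was called below 0.05. Fewer cells of a type and less RNA per cell cannot be told apart in bulk libraries. Where settings that ended a call are listed, a fit with a block by column number is left out, and the calls it ended are named at the end. Ranges over the alternatives include it.

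Counted over the members, 27 of the 34 tested were called between the WT coculture and the monoculture, 11 higher and 16 lower, against 62.5% of all genes tested (32.8% higher and 29.7% lower). The groups of 24 did not overlap, against 60.9% of all genes. For the IL13KO coculture against monoculture, 18 were called, 14 higher and 4 lower, against 57.4% of all genes (30.1% higher and 27.3% lower), while 19 did not overlap, against 59.2%. Between the WT and IL13KO cocultures, 20 were called, 4 higher and 16 lower in WT, against 23.3% of all genes (11.6% higher and 11.7% lower), and 25 did not overlap, against 49%. The median log2 fold change over the 34 was -0.51, 0.46 and -0.72 in these comparisons, beside 0.015, 0.0017 and -0.0042 over all genes tested. The first 2 comparisons share the monocultures. After GC correction, the IL13KO coculture had 7 members higher and 14 lower than monoculture (Axin2, Dkk3, Fzd2, Fzd5, Fzd8, Lgr4, Tcf7l1, Wnt4, Wnt5a and Wnt5b joined the lower ones). Among the genes called over the whole table, that correction left 37.8% higher in IL13KO in place of 52.5%, and 42.7% higher in WT in place of 52.4%. Without WT coculture 3 the members lower in WT than in IL13KO numbered 7, and without IL13KO coculture 2 they numbered 9. Over all genes, those lower in WT numbered 1238 and 1239 in these fits, in place of 1909.

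By family, both called Dickkopf genes, Frzb, Notum and both co-receptors were lower in WT than in IL13KO, as were 5 of the 8 Frizzled genes and 3 of the 7 ligand genes tested. The 4 members higher in WT were Wnt2, Wnt4, Sfrp5 and Fzd9. Over all genes tested, 11.7% were lower and 11.6% higher in WT than in IL13KO. The 7 members called in all 3 comparisons were Wnt2, Fzd1, Fzd9, Lrp5, Lrp6, Sfrp1 and Dkk2, and 3 were called in none (Axin2, Rspo1 and Tcf7l1). The shares of all genes called in all 3 comparisons or in none were not computed, so these counts only list the members.

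**Figure D1:**
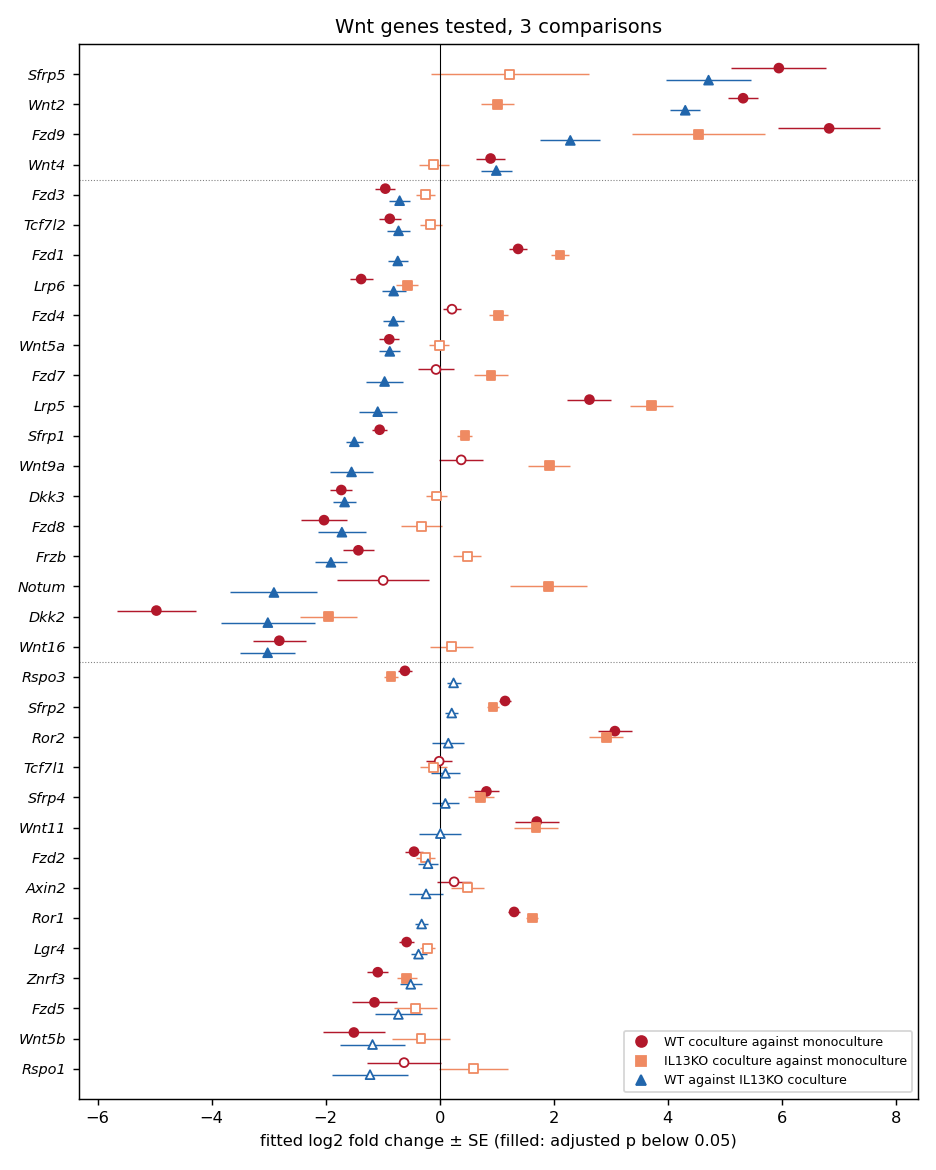
Fitted log2 fold change ± SE (x axis) of the 34 tested members, with 1 symbol for each comparison of the WT cocultures, IL13KO cocultures and monocultures. Filled symbols have an adjusted p below 0.05, and dotted lines part the 4 members higher in WT than in IL13KO, the 16 lower and the 14 not called; the comparisons with monoculture share its 4 libraries.

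Among members above 10 CPM in a group, the largest fold change was that of Wnt2, a ligand of the β-catenin branch. Its level was 51.8, 53.9 and 51.2 CPM in the WT cocultures, 1.93, 2.96 and 3.0 in IL13KO cocultures, and 1.6, 1.33, 0.461 and 1.69 in the monocultures. Each WT coculture was far above every other library, and the 3 WT values lay within a few CPM of each other. The mean was 52.3 ± 1.42 CPM in the WT cocultures, 19.9-fold the 2.63 ± 0.608 of the IL13KO cocultures and 41.1-fold the 1.27 ± 0.561 of the monocultures. Wnt2 rose in the WT coculture by 5.32 ± 0.26 against monoculture (edgeR adjusted p = 1.01e-08) and by 4.31 ± 0.26 against the IL13KO coculture (edgeR adjusted p = 5.07e-07). Under every alternative these calls remained, at 5.05 to 5.49 and 4.13 to 4.42. In the IL13KO coculture it rose by 1.02 ± 0.29 against monoculture (edgeR adjusted p = 0.0102). That call ended with only those groups in the fit (1.01) or after GC correction (0.71), and the adjusted p ranged from 0.000651 to 0.0626 over all alternatives. The gene lies on chromosome 6 (GRCm38, 17988940 to 18030585, minus strand) and shares no exon base with another annotated gene.

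The promoters of Wnt2, of Fzd9 (the other member that rose in both cocultures and was higher in WT) and of Wnt11 (a ligand gene that rose in both without a called difference) are shown here, as RefSeq gives them on GRCm38.p6, from 250 bases before to 50 after the start and on the strand of the gene. A pair of short motifs was searched on both strands: the TCF/LEF core ATCAAAG or TTCAAAG, and TTC and GAA 4 bases apart, the spacing bound by STAT6, the factor downstream of IL-13. Capitals mark the matches, and the motifs do not overlap each other there.
Wnt2, chr6:18030396-18030695, minus strand: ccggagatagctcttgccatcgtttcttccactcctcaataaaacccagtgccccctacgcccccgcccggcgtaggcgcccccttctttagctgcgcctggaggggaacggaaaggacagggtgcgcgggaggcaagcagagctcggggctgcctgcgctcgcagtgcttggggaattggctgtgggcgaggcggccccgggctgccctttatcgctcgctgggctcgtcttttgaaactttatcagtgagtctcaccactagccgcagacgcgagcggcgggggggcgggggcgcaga
Fzd9, chr5:135250998-135251297, minus strand: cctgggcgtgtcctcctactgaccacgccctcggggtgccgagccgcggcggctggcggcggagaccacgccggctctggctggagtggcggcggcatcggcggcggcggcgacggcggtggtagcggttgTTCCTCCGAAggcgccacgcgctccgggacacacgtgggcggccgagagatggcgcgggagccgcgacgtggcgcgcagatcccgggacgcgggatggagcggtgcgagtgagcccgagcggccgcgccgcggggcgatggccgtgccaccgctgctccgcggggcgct
Wnt11 (the first of its listed promoters), chr7:98834862-98835161, plus strand: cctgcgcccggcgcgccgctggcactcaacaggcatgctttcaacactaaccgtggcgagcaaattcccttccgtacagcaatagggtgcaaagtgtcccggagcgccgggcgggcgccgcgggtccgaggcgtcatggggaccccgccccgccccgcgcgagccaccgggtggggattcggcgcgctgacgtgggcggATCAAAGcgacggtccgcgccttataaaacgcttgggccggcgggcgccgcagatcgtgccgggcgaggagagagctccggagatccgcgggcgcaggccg
The window of Wnt2 holds neither motif, that of Fzd9 holds the STAT6 spacing 119 to 110 bases before the start, and that of Wnt11 holds a TCF/LEF core 51 to 45 bases before it. Of the 28 members with a promoter in the RefSeq table, 2 (7.14%, Wnt11 and Wnt5b) hold a TCF/LEF core, against 9.88% of all genes with a promoter there, and 3 (10.7%, Fzd9, Lef1 and Lgr4) hold the STAT6 spacing, against 8.01%. A match in so short a window is a description of the letters, not a binding site.

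**Figure D2:**
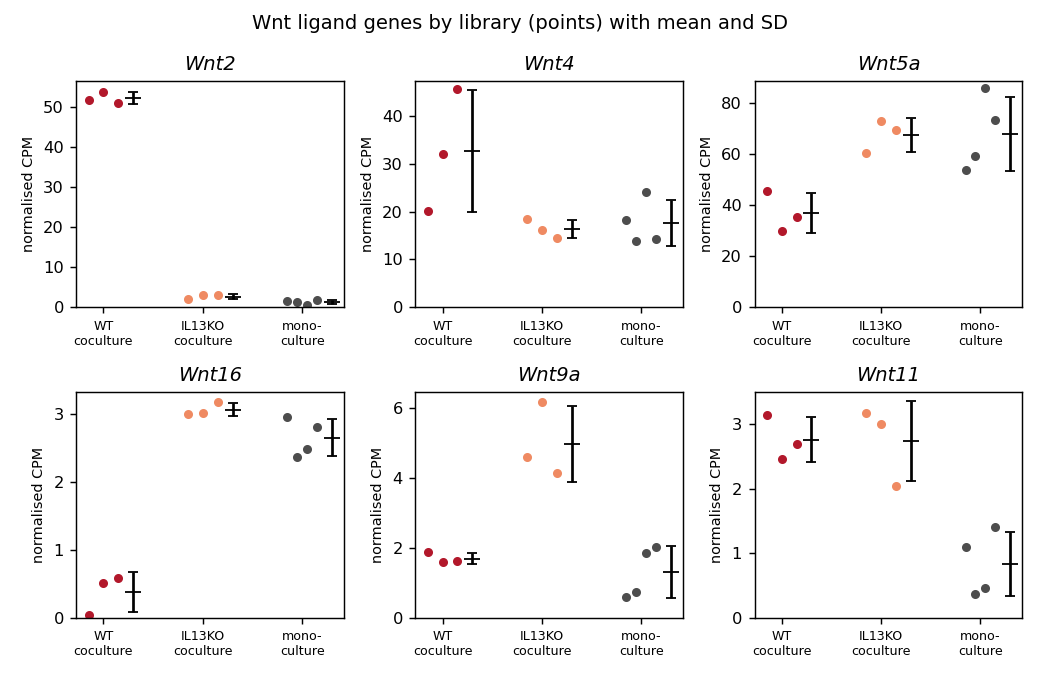
Normalised CPM (y axis, linear, from 0) of 6 Wnt ligand genes in the 3 WT cocultures, 3 IL13KO cocultures and 4 monocultures. Points are libraries and the black bar beside them is the mean with its SD; Wnt2 sits at 51.2 to 53.9 CPM in the WT cocultures and at no more than 3.0 CPM elsewhere.

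Wnt5a and Wnt16 moved the other way. Wnt5a, the best known ligand of the branch without β-catenin, had 45.4, 29.9 and 35.2 CPM in the WT cocultures, 60.3, 73.1 and 69.5 in IL13KO cocultures, and 53.6, 59.2, 85.8 and 73.5 in the monocultures. All WT cocultures were below all other libraries, and the IL13KO cocultures lay within the range of the monocultures. It fell in WT by 0.88 ± 0.18 against monoculture (edgeR adjusted p = 0.000742) and by 0.87 ± 0.18 against the IL13KO coculture (edgeR adjusted p = 0.00444). Wnt16, a ligand known from bone and hair follicle, had 0.0449, 0.512 and 0.593 CPM in the WT cocultures, 3.01, 3.01 and 3.18 in IL13KO cocultures, and 2.96, 2.37, 2.49 and 2.81 in the monocultures. Its WT values were again below all others. It was 7.99-fold lower in WT than in IL13KO coculture (-3.02 ± 0.48, edgeR adjusted p = 0.000633) and 6.93-fold lower than in monoculture (-2.81 ± 0.47, edgeR adjusted p = 0.000184). Neither gene was called between the IL13KO coculture and the monoculture, at -0.01 ± 0.17 for Wnt5a and 0.21 ± 0.37 for Wnt16, though Wnt5a was called lower after GC correction (-0.42).

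Wnt4, a ligand with roles in kidney, gonad and mesenchyme, had 20.2, 32.1 and 45.8 CPM in the WT cocultures, 18.4, 16.3 and 14.5 in IL13KO cocultures, and 18.2, 13.8, 24.2 and 14.3 in the monocultures. WT coculture 1 lay inside the range of the monocultures, and the WT values spread over a wide range. It was higher in WT by 0.99 ± 0.27 than in IL13KO (edgeR adjusted p = 0.0188) and by 0.89 ± 0.25 than in monoculture (edgeR adjusted p = 0.00778). The call against IL13KO ended without WT coculture 4 (0.68) or IL13KO coculture 2 or 3 (0.99 and 0.92), with an adjusted p of 0.00342 to 0.159 over the alternatives. The call against monoculture ended without WT coculture 4 (0.58), and the sign turned after GC correction (-0.32), with an adjusted p of 0.0012 to 0.323. After that correction Wnt4 was also called lower in IL13KO than in monoculture (-1.56), against -0.10 ± 0.26 without it.

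Wnt9a stood out in the IL13KO coculture. It had 1.88, 1.59 and 1.62 CPM in the WT cocultures, 4.59, 6.20 and 4.14 in IL13KO cocultures, and 0.591, 0.741, 1.84 and 2.04 in the monocultures. The IL13KO cocultures were above all other libraries, and the WT cocultures lay within the range of the monocultures. It was lower in WT than in IL13KO by 1.55 ± 0.37 on the log2 scale (-1.55 ± 0.37, edgeR adjusted p = 0.00976) and higher in IL13KO than in monoculture by 1.92 ± 0.37 (edgeR adjusted p = 0.000641). The first call ended without IL13KO coculture 2 (-1.36; adjusted p 0.000412 to 0.0577 over the alternatives) and the second after GC correction (0.61; 7.46e-06 to 0.135).

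Wnt11, a ligand of the branch without β-catenin, had 3.14, 2.46 and 2.69 CPM in the WT cocultures, 3.18, 3.01 and 2.04 in IL13KO cocultures, and 1.10, 0.370, 0.461 and 1.41 in the monocultures. Both cocultures were above all monocultures and overlapped each other. It rose by 1.70 ± 0.39 in WT (edgeR adjusted p = 0.00196) and by 1.69 ± 0.39 in IL13KO (edgeR adjusted p = 0.00255), and both calls ended after GC correction (0.46 and 0.27, with adjusted p of 0.000227 to 0.362 and 0.000316 to 0.62 over the alternatives). Wnt5b had 0.269, 0.871 and 0.701 CPM in the WT cocultures, 0.964, 1.53 and 1.64 in IL13KO cocultures, and 2.45, 0.518, 2.58 and 1.48 in the monocultures. Monoculture 2 lay among the WT values. It fell in WT against monoculture by 1.5 ± 0.54 (edgeR adjusted p = 0.0277). That call ended without WT coculture 1 or 4 (-1.12 and -1.6) or monoculture 1 or 3 (-1.30 and -1.27) and with limma-voom (-1.40), and the fall was 2.68 after GC correction (-2.68; adjusted p 0.00106 to 0.12 over the alternatives). Between IL13KO and monoculture Wnt5b was not called (-0.33 ± 0.50), but was called lower after GC correction (-1.73). Wnt2b and Wnt6 were too low to test, with 33 and 63 reads over all libraries.

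Set side by side per kilobase of exon, the order of the ligand genes differed between groups. In the WT cocultures Wnt2 led at 23.2 ± 0.630 CPM per kb, followed by Wnt4 at 7.79 ± 3.04 and Wnt5a at 4.71 ± 1.0, which overlapped. In the IL13KO cocultures Wnt5a led at 8.64 ± 0.844 CPM per kb, followed by Wnt4 at 3.91 ± 0.461, Wnt9a at 1.49 ± 0.325 and Wnt2 at 1.17 ± 0.270, the last 2 of which overlapped. The monocultures had Wnt5a at 8.70 ± 1.85, Wnt4 at 4.2 ± 1.13 and Wnt5b at 0.662 ± 0.362 CPM per kb. The summed ligand level was 37.5 ± 2.27 CPM per kb in the WT cocultures, 17.2 ± 1.17 in the IL13KO cocultures and 15.5 ± 2.87 in the monocultures. Of that sum Wnt2 made up 62.0% ± 4.39 in WT, 6.74% ± 1.36 in IL13KO and 3.87% ± 1.89 in monoculture, and Wnt5a 12.6% ± 3.29, 50.1% ± 2.74 and 56.0% ± 4.83 in the same order.

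**Figure D3:**
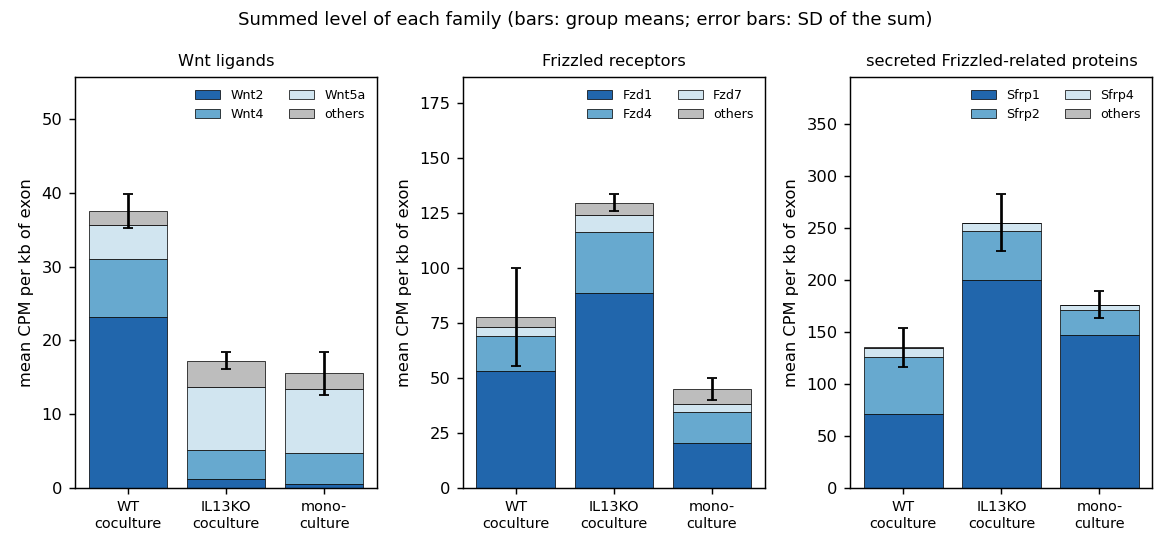
Mean CPM per kilobase of exon (y axis, linear, from 0) of the Wnt ligands, the Frizzled receptors and the secreted Frizzled-related proteins in the WT cocultures (n = 3), IL13KO cocultures (n = 3) and monocultures (n = 4), stacked by gene, with the SD of the sum. Wnt2 makes up 62.0% of the ligand bar in the WT cocultures, 6.74% in IL13KO and 3.87% in monoculture, and Sfrp1 52.1%, 78.2% and 83.1% of the last panel's bars in the same order. Levels are before GC correction, and Frzb is not among the genes of the last panel.

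The genes that let cells release Wnt ligands were lowest in the WT cocultures. Wls, the carrier that takes lipid-bearing Wnt to the cell surface, had 273, 258 and 309 CPM in the WT cocultures, 334, 342 and 339 in IL13KO cocultures, and 585, 611, 551 and 620 in the monocultures, with no overlap between any groups. Wls fell by 1.08 ± 0.09 in WT (edgeR adjusted p = 4.95e-07) and by 0.81 ± 0.09 in IL13KO (edgeR adjusted p = 9.45e-06) against monoculture. Porcn, the enzyme that attaches the lipid, had 1.98 ± 0.738 CPM in the WT cocultures, 6.98 ± 0.544 in the IL13KO cocultures and 7.38 ± 0.961 in the monocultures. Porcn fell in WT by 1.90 ± 0.25 against monoculture (edgeR adjusted p = 2.78e-05; -2.66 after GC correction) and by 1.82 ± 0.26 against IL13KO (edgeR adjusted p = 0.000299). Porcn was not called between IL13KO and monoculture (-0.08 ± 0.23), but was called lower after that correction (-0.95). Between the cocultures Wls was lower in WT by 0.27 ± 0.09 on the log2 scale (-0.27, edgeR adjusted p = 0.0459). That call ended without WT coculture 1 or 3 (-0.25 and -0.20), without any one IL13KO coculture (-0.28, -0.27 and -0.27) without monoculture 2 or 4 (-0.27 each) and with no filter (-0.26), with an adjusted p of 0.0102 to 0.198 over the alternatives.

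Among the secreted Frizzled-related proteins, Sfrp1 went down in one coculture and up in the other. Its level was 357, 240.4 and 331 CPM in the WT cocultures, 923, 943 and 751 in IL13KO cocultures, and 662, 657, 564 and 683 in the monocultures. No group overlapped another, with WT lowest and IL13KO highest. Sfrp1 fell in WT by 1.05 ± 0.14 against monoculture (edgeR adjusted p = 2.5e-05; -1.73 after GC correction) and by 1.5 ± 0.15 against IL13KO (edgeR adjusted p = 1.47e-05), which is 2.82-fold. It rose in IL13KO by 0.44 ± 0.13 against monoculture (edgeR adjusted p = 0.0117). That last call ended without IL13KO coculture 2 (0.39), and the sign turned after GC correction (-0.31), with an adjusted p of 0.00385 to 0.0783 over the alternatives. Of the 7 mural and stellate markers tested, 5 were called lower in WT than in IL13KO, against 11.7% of all genes. Lower in WT than in monoculture were 5, against 29.7% of all genes. These were not all the same genes, as Des and Notch3 were called lower only against IL13KO, and Acta2 and Mcam only against monoculture. The part of these markers in the change of Sfrp1 was not tested.

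Sfrp2 and Sfrp4 rose in both cocultures. Sfrp2, an abundant product of tissue fibroblasts, had 135, 113 and 106 CPM in the WT cocultures, 96.5, 115 and 93.9 in IL13KO cocultures, and 50.5, 51.5, 54.1 and 56.3 in the monocultures. All coculture values exceeded all monoculture values. The rise was 1.15 ± 0.11 in WT (edgeR adjusted p = 1.81e-06) and 0.94 ± 0.11 in IL13KO (edgeR adjusted p = 1.73e-05). Between the cocultures the difference was 0.21 ± 0.12 (edgeR adjusted p = 0.213). For Sfrp2, 16.1% of the exon sequence overlaps an antisense gene, whose reads cannot be told apart without strand. Sfrp4 had 41.5, 40.4 and 29.2 CPM in the WT cocultures, 33.2, 33.3 and 37.1 in IL13KO cocultures, and 30.8, 17.0, 13.5 and 22.4 in the monocultures. Monoculture 1 lay above WT coculture 4. It rose by 0.82 ± 0.23 in WT (edgeR adjusted p = 0.00654) and by 0.72 ± 0.23 in IL13KO (edgeR adjusted p = 0.0156), and the second call ended without IL13KO coculture 3 (0.67; adjusted p 0.000786 to 0.054 over the alternatives).

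Sfrp5, best known from fat tissue, was read almost only in the WT cocultures. It had 1.69 ± 0.0570 CPM there, 0.0567 ± 0.0982 in the IL13KO cocultures and 0.0176 ± 0.0352 in the monocultures, from 102, 3 and 1 reads. The ratio of WT to IL13KO was 29.8 (exact 95% interval 9.91 to 147) and that of WT to monoculture 85.2 (15.0 to 3398), intervals that cover counting error only. Both differences were called (edgeR adjusted p = 0.000617 and 4.48e-05), and the calls remained under every alternative. At so few reads the fitted size moved with single libraries. Against IL13KO it was 4.72, and 7.79 without IL13KO coculture 3. Against monoculture it was 5.95, and 7.81 without monoculture 4 or 5.22 after GC correction. Per kilobase, the 4 Sfrp genes summed to 135 ± 18.7 CPM per kb in the WT cocultures, 255 ± 27.3 in the IL13KO cocultures and 176 ± 13.2 in the monocultures. Frzb, which belongs to the same protein family, is not in this sum (1.04, 3.88 and 2.78 CPM per kb in the same order). Sfrp1 made up 52.1% ± 5.24 of the sum in WT, 78.2% ± 1.73 in IL13KO and 83.1% ± 0.935 in monoculture.

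The other secreted modulators were lower in the WT coculture than in the IL13KO coculture. Dkk3, a secreted Dickkopf family member whose action on Wnt signalling varies between cells, had 138, 113 and 118 CPM in the WT cocultures, 433, 419.9 and 321 in IL13KO cocultures, and 261, 418, 483 and 468 in the monocultures. The WT values were below all others, and the other groups overlapped (-0.06 ± 0.18, called at -0.60 after GC correction). Dkk3 fell in WT by 1.67 ± 0.20 against IL13KO (edgeR adjusted p = 8.13e-05) and by 1.72 ± 0.19 against monoculture (edgeR adjusted p = 6.94e-06). Frzb, a Wnt-binding antagonist of cartilage and mesenchyme, had 2.83, 2.92 and 4.31 CPM in the WT cocultures, 13.2, 13.8 and 10.7 in IL13KO cocultures, and 9.88, 11.6, 9.31 and 5.27 in the monocultures. Frzb fell in WT by 1.91 ± 0.28 against IL13KO (edgeR adjusted p = 0.000344) and by 1.43 ± 0.27 against monoculture (edgeR adjusted p = 0.000467), with WT again below every other library.

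Dkk2, a modulator of LRP5 and LRP6, was low everywhere, at 0.0329 ± 0.0289 CPM in the WT cocultures, 0.322 ± 0.0653 in the IL13KO cocultures and 1.26 ± 0.516 in the monocultures. From 2 reads in WT, 17 in IL13KO and 65 in monoculture, it was lower in WT by a ratio of 38.9 against monoculture (exact 95% interval 10.3 to 328) and of 9.70 against IL13KO (2.30 to 86.6). These intervals, too, cover counting error only. The calls were made at edgeR adjusted p = 4.37e-05 and 0.0181, and at 0.00485 for IL13KO against monoculture (-1.96 ± 0.50). The call between the cocultures ended without WT coculture 3 (-2.52) or IL13KO coculture 3 (-2.84), with an adjusted p of 0.00897 to 0.0711 over the alternatives. Notum, which inactivates Wnt ligands, had 0.346 ± 0.319 CPM in the WT cocultures, 2.72 ± 1.47 in the IL13KO cocultures and 0.740 ± 0.498 in the monocultures. Antisense genes share 38.1% of its exon bases. It was lower in WT than in IL13KO by 2.91 ± 0.76 on the log2 scale (-2.91, edgeR adjusted p = 0.015), and higher in IL13KO than in monoculture by 1.92 ± 0.68 (edgeR adjusted p = 0.0279), groups that overlapped. The first call ended without WT coculture 3 (-2.99) or IL13KO coculture 2 (-2.52), was -3.66 without WT coculture 1 and -3.54 with limma-voom, and had an adjusted p of 0.00377 to 0.08 over the alternatives. The second ended without IL13KO coculture 2 or 3 (1.52 and 1.84), without monoculture 2 or 4 (1.74 and 1.59) and after GC correction (0.70), with an adjusted p of 0.0127 to 0.4. After that correction Notum was called lower in WT than in monoculture (-2.05), against -0.99 ± 0.81 without it.

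**Figure D4:**
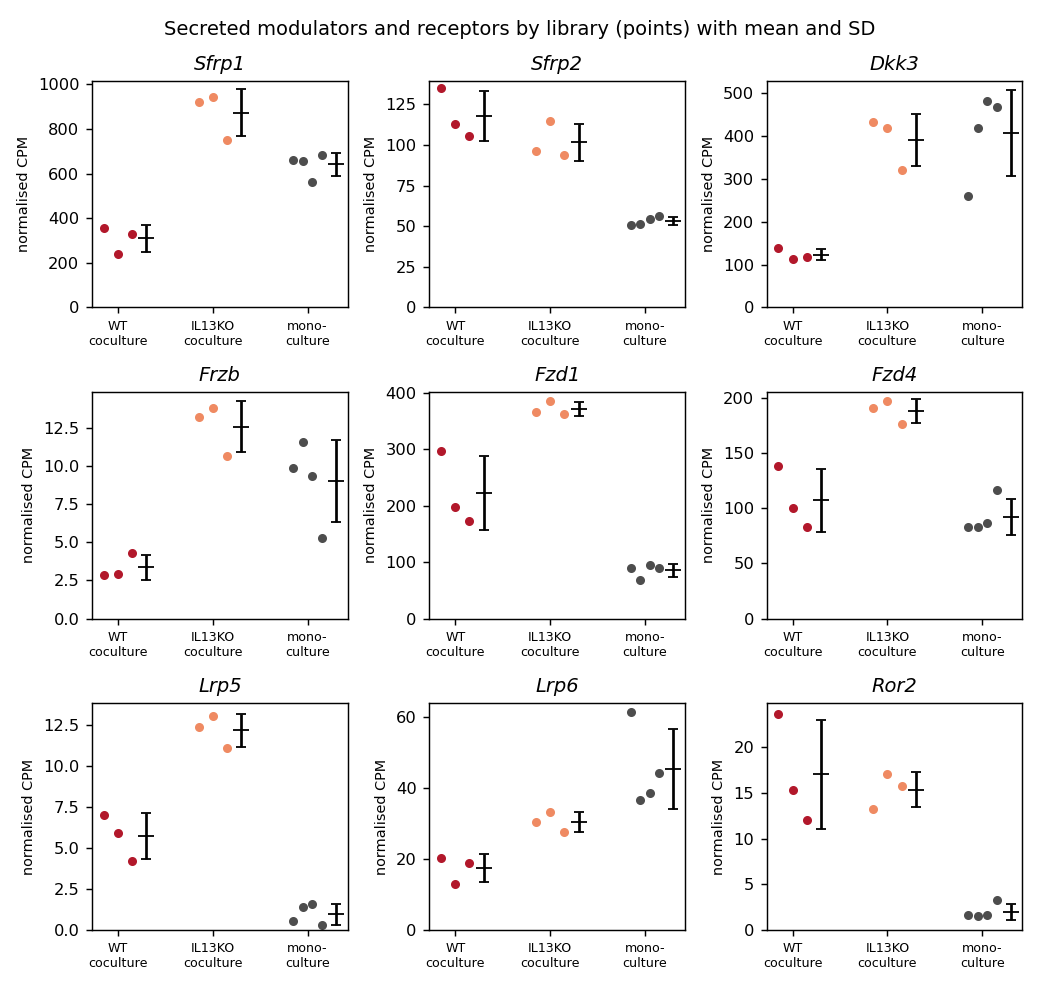
Normalised CPM (y axes, linear, from 0) of 4 secreted modulators, 2 Frizzled receptors and 3 other receptor genes in the 3 WT cocultures, 3 IL13KO cocultures and 4 monocultures. Points are libraries and the black bar beside them is the mean with its SD; Fzd1 and Lrp5 are above the monocultures in both cocultures and highest in IL13KO, while Dkk3, Frzb and Lrp6 are lowest in WT.

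Fzd1 was the leading Frizzled gene in every group per kilobase, and it rose in both cocultures. Its level was 298, 198 and 173 CPM in the WT cocultures, 366, 385 and 362 in IL13KO cocultures, and 89.0, 69.2, 95.8 and 89.6 in the monocultures, with no overlap between groups. Fzd1 rose by 1.38 ± 0.16 in WT (edgeR adjusted p = 1.13e-05) and by 2.11 ± 0.16 in IL13KO (edgeR adjusted p = 9.63e-07). WT was below IL13KO (-0.73 ± 0.17, edgeR adjusted p = 0.00856). After GC correction the WT call ended (0.10; adjusted p 5.96e-13 to 0.579 over the alternatives) and the rise in IL13KO was 0.66. The call between cocultures ended without WT coculture 3 (-0.64; 5e-04 to 0.0556).

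Fzd4, a receptor of Norrin as well as of Wnt ligands, rose in the IL13KO coculture and was not called in the WT coculture. It had 139, 101 and 82.7 CPM in the WT cocultures, 191, 198 and 177 in IL13KO cocultures, and 82.9, 83.1, 86.8 and 117 in the monocultures. The WT and monoculture ranges overlapped. The difference was 1.03 ± 0.16 for IL13KO against monoculture (edgeR adjusted p = 0.000186) and -0.81 ± 0.18 for WT against IL13KO (edgeR adjusted p = 0.00546), both of which remained called under every alternative. Fzd7, a receptor that works with β-catenin in stem cells, had 26.2, 14.3 and 10.9 CPM in the WT cocultures, 32.1, 32.3 and 36.3 in IL13KO cocultures, and 20.4, 12.5, 27.0 and 12.3 in the monocultures. The IL13KO cocultures were above all other libraries. Fzd7 was called higher in IL13KO than in monoculture (0.90 ± 0.30, edgeR adjusted p = 0.0215) and lower in WT than in IL13KO (-0.97 ± 0.32, edgeR adjusted p = 0.0471). The first call ended without IL13KO coculture 3 (0.85) or monoculture 2 or 4 (0.76 and 0.75), and turned to -0.33 after GC correction (adjusted p 0.0041 to 0.302 over the alternatives). The second ended without WT coculture 3 or 4 (-0.83 and -0.72), without any one IL13KO coculture (-0.99, -0.99 and -0.90) and with RLE size factors (-0.96), with an adjusted p of 0.00879 to 0.18. After GC correction Fzd7 was called lower in WT than in monoculture (-1.17).

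Fzd2, Fzd3, Fzd5 and Fzd8 fell in the WT coculture against monoculture. Fzd3, a receptor of axon guidance and planar polarity, had 13.1, 10.3 and 10.4 CPM in the WT cocultures, 18.0, 17.4 and 19.7 in IL13KO cocultures, and 23.1, 24.6, 15.9 and 24 in the monocultures. Fzd3 fell by 0.95 ± 0.17 (edgeR adjusted p = 0.000364). Fzd2, which binds Wnt5a, had 13.1, 9.53 and 10.8 CPM in the WT cocultures, 13.0, 12.7 and 12.8 in IL13KO cocultures, and 14.5, 13.6, 18.6 and 14.2 in the monocultures. Fzd2 fell by 0.45 ± 0.16 (edgeR adjusted p = 0.0281). For both genes every WT coculture was below every monoculture, and for Fzd2 the WT and IL13KO cocultures overlapped. Each IL13KO coculture was also below every monoculture for Fzd2, without a call (-0.24 ± 0.16, edgeR adjusted p = 0.212). After GC correction Fzd2 was called lower in IL13KO as well (-1.70). The fall of Fzd2 lost its call without WT coculture 3 or 4 (-0.35 and -0.42) or monoculture 3 (-0.34), with no filter (-0.42) and with only those groups in the fit (-0.45), and was -1.71 after GC correction (adjusted p 4.92e-07 to 0.118 over the alternatives). Fzd3 was also lower in WT than in IL13KO (-0.70 ± 0.18, edgeR adjusted p = 0.0138), which ended without WT coculture 3 or 4 (-0.62 and -0.64) or IL13KO coculture 3 (-0.65; adjusted p 0.00212 to 0.0713 over the alternatives). Without monoculture 3, Fzd3 was called lower in IL13KO than in monoculture (-0.38).

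Fzd8 averaged 0.495 ± 0.210 CPM in the WT cocultures, 1.65 ± 0.496 in the IL13KO cocultures and 2.06 ± 0.552 in the monocultures. It fell in WT by 2.03 ± 0.41 against monoculture (edgeR adjusted p = 0.000779; -2.95 after GC correction) and by 1.71 ± 0.42 against IL13KO (edgeR adjusted p = 0.0107). The second of these ended without WT coculture 3 (-1.39) or IL13KO coculture 2 (-1.56), with an adjusted p of 0.00319 to 0.0659. Fzd5 averaged 1.08 ± 0.497 CPM in the WT cocultures, 1.80 ± 0.567 in the IL13KO cocultures and 2.41 ± 0.678 in the monocultures. An antisense gene shares 17.8% of its exon bases. Its fall in WT against monoculture (-1.14 ± 0.39, edgeR adjusted p = 0.0221) ended without WT coculture 3 (-0.81) and was -2.28 after GC correction (adjusted p 0.00018 to 0.0888). Between IL13KO and monoculture, Fzd8 (-0.31 ± 0.36) and Fzd5 (-0.42 ± 0.38) were not called (edgeR adjusted p = 0.475 and 0.362). After GC correction both were called lower in IL13KO (-1.38 and -1.72).

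Fzd9, a receptor expressed in brain and bone, was read in every coculture and in no monoculture. It had 0.865 ± 0.206 CPM in WT and 0.170 ± 0.000236 in IL13KO, from 52 and 9 reads, against 0 reads in the monocultures. Each IL13KO coculture had 3 reads, so the small SD there comes from similar library sizes and does not make the level precise. With 3 counts over the monocultures as the floor, Fzd9 was at least 14.5-fold higher in WT and at least 2.86-fold higher in IL13KO (edgeR adjusted p = 9.56e-05 and 0.00746). The IL13KO call ended after GC correction, where the fitted difference, which is no bound with 0 monoculture reads, was 4.13 against 4.54 without it (adjusted p 0.0073 to 0.0685 over the alternatives). The level in WT was 5.08-fold that in IL13KO, and higher by 2.29 ± 0.53 (edgeR adjusted p = 0.0114). That call ended without WT coculture 4 (2.11) or any one IL13KO coculture (2.30, 2.30 and 2.30), with an adjusted p of 0.00224 to 0.15. The Frizzled genes summed to 77.7 ± 22.3 CPM per kb in the WT cocultures, 129.5 ± 3.88 in the IL13KO cocultures and 44.9 ± 4.95 in the monocultures. Fzd1 made up 68.3% ± 0.547 of the sum in WT, 68.3% ± 0.286 in IL13KO and 45.5% ± 1.97 in monoculture. These levels are before GC correction. After it, the rise of Fzd1 in WT against monoculture was 0.10 and not called. Fzd2, Fzd3, Fzd5, Fzd7 and Fzd8 were then called lower in WT, and Fzd9 higher. The sum after that correction was not computed.

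The co-receptors LRP5 and LRP6 changed in opposite directions against monoculture. Lrp5 had 7.05, 5.94 and 4.2 CPM in the WT cocultures, 12.4, 13.1 and 11.1 in IL13KO cocultures, and 0.507, 1.41, 1.57 and 0.281 in the monocultures. Lrp5 rose by 2.63 ± 0.39 in WT (edgeR adjusted p = 6.8e-05) and by 3.71 ± 0.38 in IL13KO (edgeR adjusted p = 6.41e-06). After GC correction the rises were 1.17 and 2.03, and both remained called. Lrp6 had 20.3, 12.9 and 18.9 CPM in the WT cocultures, 30.4, 33.2 and 27.6 in IL13KO cocultures, and 61.3, 36.7, 38.4 and 44.2 in the monocultures. Lrp6 fell by 1.38 ± 0.20 in WT (edgeR adjusted p = 6.41e-05) and by 0.57 ± 0.19 in IL13KO (edgeR adjusted p = 0.0235). No group overlapped another for either gene. Per kilobase, Lrp6 stood at 1.27 CPM per kb and Lrp5 at 0.588 in the WT cocultures, at 2.22 and 1.25 in the IL13KO cocultures, and at 3.30 and 0.0966 in the monocultures.

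Both co-receptors were lower in WT than in IL13KO, Lrp5 by 1.09 ± 0.34 (-1.09, edgeR adjusted p = 0.0337) and Lrp6 by 0.81 ± 0.21 (-0.81, edgeR adjusted p = 0.0141). The call of Lrp5 ended without WT coculture 3 or 4 (-1.09 and -0.90) and without any one IL13KO coculture (-1.07, -1.03 and -1.15), with an adjusted p of 0.00107 to 0.25 over the alternatives. That of Lrp6 ended without WT coculture 3 (-0.61) or IL13KO coculture 2 (-0.74; adjusted p 0.0028 to 0.0773). The fall of Lrp6 in IL13KO ended without IL13KO coculture 1 or 3 (-0.56 and -0.50) or monoculture 1 (-0.39; adjusted p 0.00041 to 0.0944).

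The ROR receptor kinases, which bind Wnt5a, rose in both cocultures. Ror1 had 142, 113 and 117 CPM in the WT cocultures, 166, 150.3 and 147 in IL13KO cocultures, and 45.5, 47.2, 55.6 and 52.4 in the monocultures. No group overlapped another. It rose by 1.31 ± 0.11 in WT (edgeR adjusted p = 6.05e-07) and by 1.62 ± 0.11 in IL13KO (edgeR adjusted p = 4.43e-07). Ror2 had 23.7, 15.3 and 12.1 CPM in the WT cocultures, 13.3, 17.1 and 15.7 in IL13KO cocultures, and 1.6, 1.48, 1.57 and 3.30 in the monocultures. Monoculture 4 was above the other monocultures. It rose by 3.08 ± 0.30 in WT (edgeR adjusted p = 2.18e-06) and by 2.92 ± 0.30 in IL13KO (edgeR adjusted p = 6.74e-06), or by 1.49 and 1.09 after GC correction, still called. Between the cocultures neither was called, with differences of -0.32 ± 0.11 for Ror1 (edgeR adjusted p = 0.0645) and 0.15 ± 0.28 for Ror2 (edgeR adjusted p = 0.739). The difference of Ror1 was called without WT coculture 1 (-0.42) or monoculture 1 or 3 (-0.32 each), with limma-voom (-0.32), with upper-quartile scaling (-0.33) and with only those groups in the fit (-0.31).

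On the R-spondin side, Rspo3, the main R-spondin of many stromal cells, fell in both cocultures. It had 56.4, 55.8 and 61.4 CPM in the WT cocultures, 50.0, 45.5 and 51.0 in IL13KO cocultures, and 105, 86.8, 75.4 and 85.1 in the monocultures. No monoculture was as low as any coculture. The fall was 0.61 ± 0.12 in WT (edgeR adjusted p = 0.000514) and 0.85 ± 0.12 in IL13KO (edgeR adjusted p = 5.6e-05), and WT minus IL13KO was 0.24 ± 0.12 (edgeR adjusted p = 0.174). An antisense gene shares 13.1% of the exon bases of Rspo3. Lgr4, the R-spondin receptor with enough reads to test, had 18.1, 18.7 and 15.8 CPM in the WT cocultures, 21.7, 21.9 and 24.5 in IL13KO cocultures, and 30.8, 23.8, 24.7 and 25.7 in the monocultures. Lgr4 fell in WT by 0.58 ± 0.13 against monoculture (edgeR adjusted p = 0.00208), and was -0.37 ± 0.14 against IL13KO (edgeR adjusted p = 0.0751), called without monoculture 1 or with only those groups in the fit (-0.37 each). Between IL13KO and monoculture Lgr4 was not called (-0.21 ± 0.13), but was called lower after GC correction (-0.47).

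Znrf3, the ubiquitin ligase that removes Frizzleds and is itself a target of β-catenin, had 8.44, 8.91 and 8.08 CPM in the WT cocultures, 13.6, 13.4 and 9.18 in IL13KO cocultures, and 21.9, 16.3, 18.2 and 15.7 in the monocultures. It fell by 1.09 ± 0.18 in WT (edgeR adjusted p = 0.000186) and by 0.58 ± 0.18 in IL13KO (edgeR adjusted p = 0.0136), without overlap with the monocultures. After GC correction the falls were 1.91 and 1.54 (-1.91 and -1.54). The IL13KO call ended without IL13KO coculture 3 (-0.41; adjusted p 2e-05 to 0.0792 over the alternatives). WT against IL13KO (-0.51 ± 0.19, edgeR adjusted p = 0.0713) was called without IL13KO coculture 3 (-0.67) or monoculture 1 (-0.51) or with only those groups in the fit (-0.50). Rspo1 was not called in any comparison, apart from WT against IL13KO with only those groups in the fit (-1.22), and averaged 0.831 ± 0.328 CPM in the WT cocultures, 1.93 ± 0.699 in the IL13KO cocultures and 1.26 ± 1.07 in the monocultures.

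In the nucleus, Tcf7l2 was the TCF/LEF gene with the highest level per kilobase. It had 121, 109 and 89.2 CPM in the WT cocultures, 198, 179 and 148 in IL13KO cocultures, and 281, 165, 161 and 173 in the monocultures. Every WT value was below every other library. Tcf7l2 fell in WT by 0.87 ± 0.19 against monoculture (edgeR adjusted p = 0.00147) and by 0.72 ± 0.20 against IL13KO (edgeR adjusted p = 0.0206). The second call ended without WT coculture 3 or 4 (-0.72 and -0.61) or IL13KO coculture 1 or 2 (-0.62 and -0.70), with an adjusted p of 0.000952 to 0.0961 over the alternatives. Tcf7l1, mostly a repressor, averaged 11.2 ± 3.04 CPM in the WT cocultures, 10.4 ± 0.315 in the IL13KO cocultures and 11.3 ± 3.43 in the monocultures. It was not called, though after GC correction it was called lower in WT (-1.47) and in IL13KO (-1.83) than in monoculture. Tcf7 and Lef1 had 23 and 9 reads over all 10 libraries, too few to test.

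Axin2, the feedback inhibitor most often used to read β-catenin activity, had 3.99, 3.18 and 2.96 CPM in the WT cocultures, 3.80, 4.43 and 3.74 in IL13KO cocultures, and 2.11, 2.52, 4.79 and 2.04 in the monocultures. Monoculture 3 was the highest library of all, and the other 3 monocultures were the lowest. The differences were 0.25 ± 0.30 for WT against monoculture, 0.49 ± 0.29 for IL13KO against monoculture and -0.24 ± 0.30 for WT against IL13KO (edgeR adjusted p = 0.472, 0.17 and 0.624). Without monoculture 3 both cocultures were called higher (0.60 and 0.84), and after GC correction both were called lower (-0.85 and -0.78). The sign of Axin2 against monoculture turned with GC correction, and leaving out monoculture 3 changed the call but not the sign.

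Outside the members, genes of the cytoplasmic signal changed in both directions. Of 16 tested, 3 were higher and 7 lower in WT against monoculture, 4 and 4 in IL13KO against monoculture, and 0 and 3 in WT against IL13KO (tested by edgeR). The shares called were 62.5%, 50% and 18.8% in these comparisons, beside 62.5%, 57.4% and 23.3% of all genes. Ctnnb1, which encodes β-catenin, averaged 152 ± 15.8 CPM in the WT cocultures, 164 ± 4.49 in the IL13KO cocultures and 185 ± 27.4 in the monocultures. It was not called (edgeR adjusted p = 0.0538, 0.222 and 0.591). It was called lower in WT than in monoculture without WT coculture 4 (-0.35) or monoculture 2 or 4 (-0.35 and -0.33), with upper-quartile scaling (-0.40), limma-voom (-0.27) or a stricter filter (-0.28) and, in both cocultures, after GC correction (-0.77 in WT and -0.71 in IL13KO). Csnk1d, a casein kinase of the pathway, rose by 1.44 ± 0.19 in WT and 1.82 ± 0.19 in IL13KO (edgeR adjusted p = 2.32e-05 and 6.59e-06; 0.49 and 0.74 after GC correction). Amer1, a membrane anchor of the destruction complex, fell by 1.35 ± 0.17 in WT and 0.81 ± 0.17 in IL13KO (edgeR adjusted p = 2.48e-05 and 0.00141). The 3 lower in WT than in IL13KO, Csnk1a1 (-0.36 ± 0.09), Gsk3b (-0.38 ± 0.11) and Amer1 (-0.54 ± 0.18), had edgeR adjusted p of 0.0132, 0.029 and 0.049. All 3 calls ended on leaving out WT coculture 3 (-0.33, -0.31 and -0.35) or 4 (-0.34, -0.34 and -0.62) or IL13KO coculture 1 (-0.35, -0.41 and -0.49). Those of Gsk3b and Amer1 also ended without IL13KO coculture 2 (-0.34 and -0.59) or 3 (-0.38 and -0.54), and that of Amer1 without monoculture 4 (-0.54), with RLE size factors (-0.54) and with no filter (-0.53). After GC correction the calls of Gsk3b (-0.26) and Amer1 (-0.42) ended as well. Over the alternatives the adjusted p ranged from 0.000776 to 0.0771, 0.007 to 0.142 and 0.0279 to 0.211.

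Of the 11 nuclear cofactors, 4 were higher and 1 lower in WT against monoculture, 6 and 1 in IL13KO against monoculture, and 0 and 2 in WT against IL13KO. These are shares of 45.5%, 63.6% and 18.2%, beside 62.5%, 57.4% and 23.3% of all genes. Tle3, a Groucho co-repressor, averaged 37.9 ± 11.4 CPM in the WT cocultures, 40.0 ± 0.569 in the IL13KO cocultures and 8.41 ± 3.80 in the monocultures. Tle3 rose by 2.19 ± 0.28 in WT and 2.27 ± 0.28 in IL13KO (edgeR adjusted p = 2.14e-05 and 2.62e-05; 0.94 and 0.84 after GC correction). Tle2, of the same family, averaged 2.34 ± 0.958 CPM in the WT cocultures, 11.0 ± 0.627 in the IL13KO cocultures and 1.55 ± 0.383 in the monocultures. For Tle2, WT was 2.22 ± 0.28 below IL13KO on the log2 scale (-2.22, edgeR adjusted p = 0.000125), while IL13KO was 2.82 ± 0.28 above monoculture (edgeR adjusted p = 4.76e-06; 0.89 after GC correction). The β-catenin cofactor Pygo1 fell by 2.20 ± 0.24 in WT and 1.23 ± 0.23 in IL13KO (edgeR adjusted p = 5.22e-06 and 0.000487). Its paralogue Pygo2 rose by 1.94 ± 0.34 and 2.27 ± 0.34 (edgeR adjusted p = 0.000286 and 0.000119), calls that ended after GC correction (0.54 and 0.70; adjusted p 1.15e-07 to 0.14 and 6.84e-10 to 0.0686 over the alternatives). Pygo1 was also lower in WT than in IL13KO (-0.97 ± 0.25, edgeR adjusted p = 0.013), which ended without WT coculture 3 (-0.77) or IL13KO coculture 1 (-0.81; 0.00268 to 0.0688).

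Of the 11 planar polarity and other noncanonical genes tested, 6 were higher and 1 lower in WT against monoculture, 7 and 1 in IL13KO against monoculture, and 0 and 2 in WT against IL13KO. All genes had 62.5%, 57.4% and 23.3% called in the same comparisons, and this list 63.6%, 72.7% and 18.2%. Ptk7, a pseudokinase co-receptor of planar polarity, had 156, 116 and 67.8 CPM in the WT cocultures, 247, 266 and 238 in IL13KO cocultures, and 24.2, 25.2, 37.6 and 28.0 in the monocultures, with no overlap. Ptk7 rose by 1.98 ± 0.23 in WT and 3.12 ± 0.23 in IL13KO (edgeR adjusted p = 8.61e-06 and 7.46e-07; 0.36 and 1.26 after GC correction), and was lower in WT than in IL13KO (-1.14 ± 0.24, edgeR adjusted p = 0.00398). Ryk, a Wnt-binding receptor, fell by 1.33 ± 0.11 in WT and 0.81 ± 0.11 in IL13KO (edgeR adjusted p = 4.95e-07 and 3.91e-05).

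Of the 12 other extracellular modulators tested, 2 were higher and 4 lower in WT against monoculture, 5 and 3 in IL13KO against monoculture, and 0 and 6 in WT against IL13KO. Called in either direction were 50%, 66.7% and 50% of the 12, beside 62.5%, 57.4% and 23.3% of all genes. Gpc4, a glypican that carries Wnt ligands, had 44.2, 40.0 and 40.3 CPM in the WT cocultures, 98.4, 90.7 and 94.3 in IL13KO cocultures, and 75.5, 94.6, 89.8 and 91.7 in the monocultures. Gpc4 fell in WT by 1.19 ± 0.11 against IL13KO and by 1.08 ± 0.10 against monoculture (edgeR adjusted p = 8.87e-06 and 1.63e-06). Draxin, a secreted antagonist, averaged 29.2 ± 7.87 CPM in the WT cocultures, 69.8 ± 2.01 in the IL13KO cocultures and 22.3 ± 6.60 in the monocultures. Draxin was lower in WT than in IL13KO (-1.25 ± 0.23, edgeR adjusted p = 0.00156). It was higher in IL13KO than in monoculture by 1.65 ± 0.21 (edgeR adjusted p = 3.45e-05), a call that ended after GC correction (0.25). Gpc3, another glypican, fell in both cocultures, by 1.82 ± 0.19 in WT and 0.96 ± 0.18 in IL13KO (edgeR adjusted p = 4.16e-06 and 0.000693). Its level averaged 45.8 ± 13.5 CPM in the WT cocultures, 82.9 ± 11.6 in the IL13KO cocultures and 161 ± 25.1 in the monocultures. Kremen1, a receptor of Dickkopf proteins, rose by 2.38 ± 0.39 in WT and 2.74 ± 0.39 in IL13KO (edgeR adjusted p = 0.000175 and 8.17e-05; 1.12 and 1.30 after GC correction).

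Of 6 further feedback and target genes of β-catenin, 2 were higher and 3 lower in WT against monoculture, 3 and 1 in IL13KO against monoculture, and 1 and 3 in WT against IL13KO. That is 83.3%, 66.7% and 66.7% of the 6, beside 62.5%, 57.4% and 23.3% of all genes. Tnfrsf19, a receptor induced by β-catenin, had 1.62, 1.59 and 0.701 CPM in the WT cocultures, 14.1, 13.2 and 13.5 in IL13KO cocultures, and 10.7, 12.6, 12.5 and 16.7 in the monocultures. Tnfrsf19 fell in WT against IL13KO (-3.36 ± 0.27) and against monoculture (-3.32 ± 0.27) (edgeR adjusted p = 3.58e-06 and 4.55e-07). The feedback inhibitor Nkd2 averaged 13.9 ± 0.838 CPM in the WT cocultures, 61.4 ± 9.47 in the IL13KO cocultures and 34.3 ± 7.27 in the monocultures. Nkd2 fell in WT by 2.14 ± 0.19 against IL13KO and by 1.30 ± 0.18 against monoculture (edgeR adjusted p = 6.92e-06 and 3.54e-05; -2.21 against monoculture after GC correction). Its paralogue Nkd1 was lower in WT than in IL13KO as well (-1.19 ± 0.22, edgeR adjusted p = 0.00207). Both were called higher in IL13KO than in monoculture, Nkd2 by 0.84 ± 0.17 and Nkd1 by 1.06 ± 0.21 (edgeR adjusted p = 0.000823 and 0.000796), and neither call remained after GC correction (-0.20 and 0.04; adjusted p 7.47e-06 to 0.267 and 6.17e-06 to 0.849 over the alternatives). Myc, a target with many other inputs, averaged 105 ± 9.38 CPM in the WT cocultures, 56.4 ± 1.80 in the IL13KO cocultures and 30.0 ± 4.78 in the monocultures. Myc rose in WT by 0.90 ± 0.13 against IL13KO (edgeR adjusted p = 0.000358) and by 1.81 ± 0.12 against monoculture (edgeR adjusted p = 1.25e-07).

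The 11 members that were not tested had 3 to 63 reads each over all 10 libraries. Wnt6 had 35 reads over the WT cocultures, 10 over the IL13KO cocultures and 18 over the monocultures, Fzd10 had 41, 10 and 11, and Wnt2b had 19, 10 and 4. Rspo2 had 24, 21 and 3 reads in the same order, a ratio of 6.68 for WT to monoculture (exact 95% interval 2.03 to 34.7) and also of 6.68 for IL13KO to monoculture (1.99 to 35.0). These intervals cover counting error only and not the spread between libraries, and all 3 monoculture reads were in monoculture 4. Lgr5 and Lgr6, receptors that mark stem cells in several epithelia, had 40 and 30 reads in all. Fzd6 had 31 reads, Dkk4 5 and Rspo4os 3. All 11 fell below the expression filter, so differences between groups in them were not tested by the fit.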

How the data were processed

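The authors deposited raw counts of 22731 genes in 10 libraries. Per the labels' protocols, low-input libraries were sequenced as paired reads of 50 nt. Per the submitters' processing notes, the tools included STAR 2.7.7a, Salmon 1.6.0, Picard, Trimmomatic 0.39, FastQC 0.11.9 and DESeq2, and the build was GRCm38.p6; which tool counted reads, the annotation and the strand setting are not given in the sources used here. A deposited normalized table was not used.

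Genes were filtered with filterByExpr, normalised by TMM and fitted with edgeR 4.0.16 (R 4.3.3), quasi-likelihood, 1 coefficient per group over 10 libraries, Benjamini-Hochberg threshold 0.05. The fit was also run on simulated counts in which a limited set of genes was changed, as many up as down, without a GC trend. That run does not cover data with a GC trend or with as many genes called as here. Symbols, positions and exon lengths came from GENCODE on GRCm38 (22647 genes matched, 22639 with GC content, 99.6%). Folds against 0 reads use a floor of 3 counts per group, and those against 1 to 3 reads carry exact 95% intervals. Alternatives were RLE and upper-quartile factors, DESeq2 1.42.0, limma-voom (limma 3.58.1), no filter, 1 CPM in 3 libraries, only the groups compared, a block by column number, GC correction (each library's loess trend on transcript GC content and length subtracted, span 0.4), and leaving out each library. WT columns are numbered 1, 3 and 4, so they were mapped to the group only. Every member is reported: per library if called with a mean of 10 CPM in a group or a called ligand or R-spondin, otherwise as means or reads. Pathway lists give up to 4 called genes with the smallest adjusted p per comparison, and not all are named. The members and lists were chosen with earlier results of these data known.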

Additional observations from a re-analysis of the deposited data

Results flagged for a closer look

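Sfrp1 had opposite calls in the cocultures, down in WT and up in IL13KO against monoculture, and the difference itself, WT against IL13KO, was -1.497 on the log2 scale (-1.5 ± 0.15, edgeR adjusted p = 1.47e-05); it was lower in 3 of 3 WT cocultures than in every IL13KO coculture, and the change in IL13KO was -0.31 after GC correction.

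In 3 of the 34 tested members 1 of the 4 monocultures lay far from the other 3, by the gap to its neighbour divided by the range, past Dixon's 95% critical value. The quotient was 0.932 for Ror2, with monoculture 4 high, 0.899 for Tcf7l2, with monoculture 1 high, and 0.883 for Fzd4, with monoculture 4 high. Sfrp5 has a quotient of 1 because a single read in 1 monoculture always gives 1, so it shows nothing about that library. Chance alone gives such a gap in about 1 in 20 groups.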

How the results depend on the processing

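Over the alternatives that could be run, 21 of the 27 member calls of WT against monoculture, 8 of the 18 of IL13KO against monoculture and 8 of the 20 of WT against IL13KO kept their direction and stayed below an adjusted p of 0.05. These were 19 alternatives for each call but those of Dkk2 (15 or 16) and Fzd9 (17 or 18), which fell below the expression filter in the remaining ones. The 8 of WT against IL13KO were Wnt2, Wnt5a, Wnt16, Sfrp1, Sfrp5, Dkk3, Frzb and Fzd4. GC correction gave 7 members higher and 14 lower in IL13KO than in monoculture (14 and 4 otherwise) and moved the median of all genes to -0.125 in WT and -0.157 in IL13KO; upper-quartile scaling moved it to -0.106 and -0.102. It turned the sign against monoculture of Axin2 (-0.85 in WT and -0.78 in IL13KO), Wnt4 in WT (-0.32), Bcl9l in WT (-0.29), and Fzd7 (-0.33), Sfrp1 (-0.31), Nkd2 (-0.20) and Igfbp4 (-0.42) in IL13KO; the cause was not tested.

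Between WT and IL13KO, 5806 genes in place of 3810 were called with only those groups in the fit. The replicate block by column number left 2124 genes, and 2 members higher and 10 lower in WT. It ended the calls of Dkk2, Fzd3, Fzd7, Fzd8, Fzd9, Lrp5 (-0.69), Notum and Wnt4 between WT and IL13KO. Outside the members it ended those of Amer1, Csnk1a1, Gsk3b, Igfbp4 and Wls. Against monoculture it ended the calls of Fzd2 and Fzd5 in WT and of Notum in IL13KO. Libraries of the same number did not deviate together (r from -0.188 to 0.0099), and those of different numbers had r from -0.162 to 0.198. With so few libraries per group this cannot decide whether any samples were paired, which the labels do not state.

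Leaving out 1 library at a time, all genes called between WT and IL13KO numbered 2337 (without IL13KO coculture 2) to 4814 (without monoculture 1), members higher in WT 2 (without WT coculture 4 or IL13KO coculture 2 or 3) to 4, and members lower 7 (without WT coculture 3) to 18 (without monoculture 1). Over all genes, those lower in WT than in IL13KO numbered 1238 without WT coculture 3 and 2426 without monoculture 1, beside 1909 in the main fit. In IL13KO against monoculture, members lower numbered 2 (without IL13KO coculture 3 or monoculture 1) to 5 (without monoculture 3). All genes lower in that comparison numbered 3692, 4333 and 4628 in these fits, beside 4457 in the main fit. Depth limits the 11 untested members and the folds of Fzd9, Sfrp5 and Dkk2.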
